A study of Mus musculus with 32 samples.

Results

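Transcripts of NF-kB subunits and of their best-known feedback targets were followed on 32 arrays of mouse cells. The genes were chosen by name. They are the subunit genes Nfkb1, Nfkb2, Rel, Rela and Relb, the inhibitor genes Nfkbia and Nfkbie, the atypical inhibitor gene Bcl3, the feedback enzyme gene Tnfaip3 and the adaptor gene Traf1. Every probe set assigned to one of these 10 genes alone was used. That gave 17 probe sets of 9 genes, of 34958 probe sets and 18194 genes in all. Nfkbia had 5 probe sets, Nfkb2, Nfkbie, Tnfaip3 and Traf1 had 2 each, and Rel, Rela, Relb and Bcl3 had 1 each. Nfkb1 had no probe set assigned to it alone and was not analysed here.

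NF-kB proteins form dimers that IkB proteins, the products of Nfkbia and Nfkbie among them, hold in the cytoplasm. Signals from the pre-B and B-cell receptors, Toll-like receptors and TNF-family receptors activate the IkB kinase, IkB is degraded, and the freed dimers enter the nucleus. Among the genes they switch on are their own inhibitors and Tnfaip3, which shut the signal off again, so the transcripts of these genes are widely used as a readout of the pathway in lymphocytes.

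The series held 3 experiments around Ebf1, a transcription factor that early B-cell development requires. In the first, cells of the 230238 pre-B line carried either pMIG-Ebf1-engrailed (Ebf1-Eng, Ebf1 joined to the Engrailed repressor domain, 3 arrays) or empty pMIG (EV, 3 arrays), and 500000 cells sorted for the vector's GFP were used per array. A single line was studied, and the vector, not Ebf1's own promoter, drove the fusion. In the second, fetal liver cells of E14.5 Ebf1-/- embryos (C57BL/6J) were grown on OP9 stromal cells with KIT ligand, FLT3L and interleukin-7. They were infected with pMIG-Ebf1-ER, a fusion that 4-hydroxytamoxifen activates, sorted for GFP, and given 0.1 uM of 4-hydroxytamoxifen for 0, 6, 12 or 24 h (2 arrays per time, 500000 cells each). All of those arrays lacked the endogenous Ebf1 gene product, and none came from cells without Ebf1-ER or from cells left untreated for 6, 12 or 24 h. Against 0 h, the drug, time after reseeding and Ebf1-ER therefore cannot be told apart. In the third, live-sorted cells of enlarged lymph nodes from Ebf1+/-Pax5+/- C57BL/6 mice of about 30 weeks (8 nodes, 2 arrays each, thawed, 1000000 cells) were set against sorted pro-B cells of wild-type C57BL/6 mice (WT pro-B, 2 arrays, 1000000 cells). The lymph nodes were not sorted for tumour cells, and the age of the wild-type mice and whether their cells were frozen are not given in the sources used here.

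All values are log2 expression values. The deposited values were relative ones: in the pre-B line and the Ebf1-ER course every probe set had a median of 0, and in the lymph node experiment 24% did, where the centring used is not settled. Every value below is therefore given relative to the mean of the comparison group (EV, 0 h or WT pro-B), and no level can be compared between genes or experiments. Of the 5 Ebf1 probe sets, 4 were lower in Ebf1-Eng than in EV cells (log2 changes of -1.77 to -1.50), and no array told transcript of the vector apart from that of the gene itself. In the Ebf1-ER course the same count, 4 of 5, was lower at 24 h than at 0 h (-0.77 to -0.57). In the lymph nodes 4 of 5 were lower than in WT pro-B cells (-1.01 to -0.72) and 1 was higher (4.48), and Pax5 was lower on 1 of 2 probe sets (-0.77). One Ebf1-Eng array stood apart: the mean of 10 interferon-response genes lay 4.69, 4.67 and 1.10 above the EV mean in Ebf1-Eng samples 1, 2 and 3, against 0.17, 0.22 and -0.39 in the EV samples. The difference between 3'-end and 5'-end probe sets of Gapdh, a sign of RNA degradation, lay between -0.30 and -0.18 in the lymph nodes, against 0.02 and -0.02 in WT pro-B samples. The same difference for Actb went the other way, 0.07 to 0.19 in the lymph nodes, against 0.08 and -0.08 in WT pro-B samples. In bulk samples such as these, fewer cells of a type and less RNA per cell cannot be told apart.

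The promoters of these genes are shown first because 9 probe sets of 7 of these genes fell at every time of the Ebf1-ER course. In RefSeq's windows of GRCm38.p6, which run from 250 bases before to 50 bases after a transcript start, a script searched both strands for the kB consensus of NF-kB and for the palindrome TCCCNNGGGA bound by EBF proteins. Windows were found for 8 of the genes, and 11 windows in all. The kB consensus was in 8 of these 11 windows, those of 6 genes, and in 4.51% of all 32851 windows. The genes were named as NF-kB subunits and known feedback targets, so their share was likely to be high whatever the arrays showed. Windows of Nfkb2 overlap and share a match. A link between the matches and the falls was not tested. The EBF palindrome was in 0 of the 11 windows and in 0.904% of all windows. Relb and Nfkb1 were not in the table, and a match of letters in a window is not evidence of binding. The stretches around the kB matches upstream of the start are printed 5' to 3' on the gene's strand, with the matches in capitals.
Nfkb2, chr19:46304683-46304736, plus strand: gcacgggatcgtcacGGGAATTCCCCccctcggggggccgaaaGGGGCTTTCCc
Rel, chr11:23771036-23771076, minus strand: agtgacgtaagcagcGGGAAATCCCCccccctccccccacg
Nfkb2, window of another start, chr19:46305445-46305483, plus strand: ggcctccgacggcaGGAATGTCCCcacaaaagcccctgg
Nfkb2, window of a further start, chr19:46305690-46305729, plus strand: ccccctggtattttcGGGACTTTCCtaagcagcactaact
Nfkbia, chr12:55492652-55492691, minus strand: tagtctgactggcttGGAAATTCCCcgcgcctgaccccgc
Nfkbie, chr17:45555579-45555618, plus strand: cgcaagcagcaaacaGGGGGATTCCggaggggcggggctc
Tnfaip3, chr10:19015411-19015550, minus strand: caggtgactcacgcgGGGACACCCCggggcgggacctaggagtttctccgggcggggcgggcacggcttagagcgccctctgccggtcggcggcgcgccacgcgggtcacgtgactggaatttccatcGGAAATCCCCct
The first capital run of Nfkb2 and that of Rel hold overlapping matches, and Bcl3's match lay after its transcript start. No match to either motif was found in the windows of Traf1 and of Rela. Of these genes only Rela fell at every time of the Ebf1-ER course.

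The first comparison asked what a repressor form of Ebf1 does in pre-B cells. Traf1, an adaptor of TNF-family receptors that NF-kB induces, was the only one of the 9 genes that rose, and both of its probe sets did. The inhibitor genes Nfkbia and Nfkbie fell by a small amount on some of their probe sets. No probe set of a subunit gene, Bcl3 or Tnfaip3 passed the test. In all, 2 of 17 probe sets were higher and 3 were lower, against 6.71% higher and 4.95% lower over all 34958 probe sets tested (limma, Benjamini-Hochberg adjusted p under 0.05). The median log2 change of the 17 was -0.18, and that of all probe sets was -0.01. At an unadjusted p under 0.05, 7 of the 17 passed. The share of all probe sets at that looser threshold was not computed, so the percentages above are no background for this count.

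Traf1 probe set 1423602_at read 3.39, 3.56 and 2.44 in the Ebf1-Eng samples, against -0.25, 0.18 and 0.07 in the EV samples. The groups were far apart, and Ebf1-Eng sample 3 was the lowest of its group. The log2 change was 3.13 ± 0.29 (SE), an 8.75-fold rise (adjusted p = 0.00118, n = 3 and 3). Probe set 1445452_at read 2.39, 1.94 and 1.60 in the Ebf1-Eng samples, against -0.06, -0.08 and 0.14 in the EV samples, a 3.94-fold rise (1.98 ± 0.20, adjusted p = 0.0016). Ebf1-Eng sample 3 was again the lowest, as it was for the interferon-response genes, of which 6 of 10 were called higher in Ebf1-Eng cells. Without that sample the Traf1 changes were 3.47 and 2.17 and both passed; leaving out the lowest sample of a group can only raise its mean.

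Nfkbia encodes the inhibitor IkB-alpha, the quickest of the feedback loops. Its probe set 1449731_s_at read -0.47, -0.42 and -0.53 in the Ebf1-Eng samples, against -0.13, 0.07 and 0.06 in the EV samples (log2 change -0.47 ± 0.09, 1.39-fold lower, adjusted p = 0.0187). Probe set 1420088_at read -0.38, -0.32 and -0.51 in the Ebf1-Eng samples, against -0.03, 0.12 and -0.10 in the EV samples (-0.40 ± 0.10, adjusted p = 0.0448). On both, the groups did not overlap, which held for 30.3% of all probe sets. The other 3 probe sets of Nfkbia changed by -0.43, -0.33 and -0.02 and did not pass. When sample numbers were blocked, 1438157_s_at also passed (-0.43, adjusted p = 0.0236).

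Nfkbie encodes IkB-epsilon, a slower inhibitor. Its probe set 1458299_s_at read -0.54, -0.57 and -0.35 in the Ebf1-Eng samples, against -0.18, 0.11 and 0.08 in the EV samples (-0.49 ± 0.12, adjusted p = 0.0391). The other, 1431843_a_at, had a change of -0.57 ± 0.16 that did not pass (adjusted p = 0.071). The small falls of both inhibitor genes depended on the samples in the fit. Without Ebf1-Eng sample 1, Ebf1-Eng sample 2 or EV sample 2, Traf1's were the only calls left, 2 of 17. Without the samples numbered 3, 8 of 17 passed, 2 higher and 6 lower.

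Among the genes that did not pass, Bcl3 (0.02, 95% interval -0.20 to 0.25) and Rela (-0.05, interval -0.28 to 0.17) were bounded most tightly. Relb (-0.28, interval -0.70 to 0.14) and Tnfaip3 probe set 1433699_at (0.02, interval -0.41 to 0.45) were less tightly bounded. Rel changed by -0.18 (interval -0.50 to 0.14). The 2 probe sets of Nfkb2 differed in sign (0.22 and -0.19), and neither passed.

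**Figure D1:**
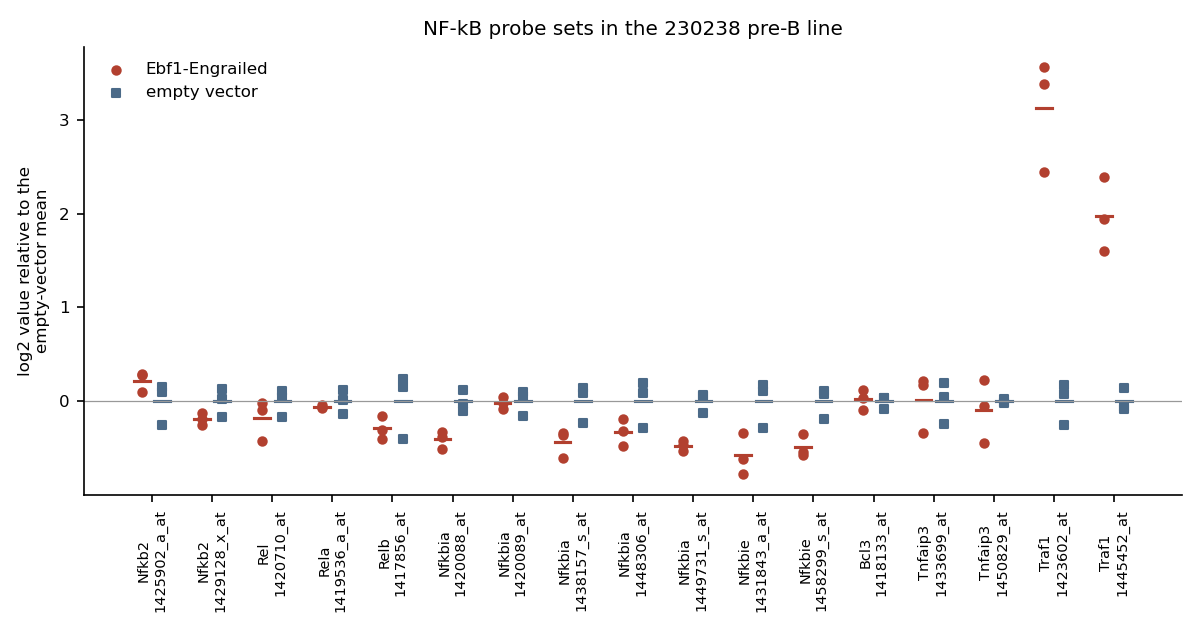
Log2 value of each NF-kB probe set relative to the EV mean (vertical axis) in the 3 Ebf1-Eng samples (red circles, bar at the mean) and the 3 EV samples (blue squares, bar at the mean). The Traf1 probe sets stand at 1.60 to 3.56 in Ebf1-Eng samples, while every other probe set lies within 1 log2 unit of 0.

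Other genes of the pathway were counted by list. Per gene, with the most variable probe set taken for each gene, 7.93% of all 18194 genes were higher and 5.67% lower in Ebf1-Eng cells. Of 18 measured IkB kinase subunits and adaptors none was higher and 1, the kinase Tbk1, was lower (log2 change -0.53). None of 7 genes of the non-canonical arm was called. Of 12 other inhibitors and deubiquitinases, Otulin (0.93) and Otud7b (0.58), which remove ubiquitin chains, rose and Tnip1 (-0.51), a partner of Tnfaip3, fell. Of 18 ligands and receptors the nucleic-acid sensor Tlr7 rose (3.23), and 3 fell, Lta (-2.48) and Ltb (-1.36), the lymphotoxins, among them. Of 35 other known NF-kB targets 6 rose and 3 fell. The lists share some genes, and Lta and Tnip1 are counted again among these falls. The largest rises were those of Ier3, an early response gene (6.55, 93.9-fold), the chemokine Ccl3 (6.41) and the growth factor Csf2 (5.64). Beside these, 4 of 13 myeloid markers and 2 of 9 NK and innate lymphoid markers were higher and 6 of 12 B-lineage markers lower. The mean of the myeloid markers lay between 0.58 and 0.65 in Ebf1-Eng samples, against -0.06 to 0.06 in EV samples. The part of these markers in the changes of NF-kB genes was not tested.

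The second experiment asked what follows when Ebf1-ER is switched on in Ebf1-deficient progenitors. NF-kB genes fell and none rose against 0 h. Of 17 probe sets, 10 were lower at 6 h, 14 at 12 h and 12 at 24 h. Over all probe sets 14.8% were lower and 17.2% higher at 6 h, 18% lower and 18.5% higher at 12 h, and 15.8% lower and 19.3% higher at 24 h. The median log2 changes of the 17 were -0.37, -0.51 and -0.45 at the 3 times, against 0.02, 0.02 and 0.04 over all probe sets. At an unadjusted p under 0.05, 15, 14 and 14 passed, with no share over all probe sets computed at that threshold. The 9 probe sets of 7 genes that were lower at every time belonged to Nfkb2, Rel, Rela, Relb, Nfkbia, Nfkbie and Tnfaip3. The 3 times were set against the same 2 arrays of 0 h, so they are not independent of each other.

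Tnfaip3, which encodes an enzyme that edits ubiquitin chains and ends NF-kB signalling, fell furthest. Probe set 1433699_at read 0.08 and -0.08 at 0 h, -1.89 and -1.82 at 6 h, -2.30 and -1.99 at 12 h, and -1.39 and -1.39 at 24 h. Every treated array lay below both 0 h arrays by more than 1 log2 unit. The fall was 3.62-fold at 6 h (-1.86 ± 0.12, adjusted p = 2.44e-05), 4.41-fold at 12 h (-2.14) and 2.62-fold at 24 h (-1.39 ± 0.12, adjusted p = 7.88e-05). Probe set 1450829_at fell less, by 0.63 at 6 h and 0.88 at 12 h, and did not pass at 24 h (-0.37, adjusted p = 0.126).

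Among the subunits, Rel and Relb moved most. Rel encodes c-Rel, the lymphoid subunit with an activating domain. It read 0.04 and -0.04 at 0 h, -1.26 and -1.25 at 6 h, -1.33 and -1.22 at 12 h, and -0.77 and -0.64 at 24 h. Both 24 h arrays lay between the 0 h arrays and those of 6 and 12 h. The fall was 2.39-fold at 6 h (-1.26 ± 0.09, adjusted p = 4.34e-05) and 1.63-fold at 24 h (-0.71, adjusted p = 0.000637). Relb, the activating subunit of the non-canonical arm, read -0.15 and 0.15 at 0 h, -0.97 and -0.94 at 6 h, -1.21 and -1.22 at 12 h, and -1.20 and -0.94 at 24 h. Its values stayed low, 2.32-fold under 0 h at 12 h (-1.21 ± 0.13, adjusted p = 0.00019) and 2.10-fold at 24 h (-1.07, adjusted p = 0.000403).

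Rela and Nfkb2 fell by less. Rela, the subunit of the most common dimer, read -0.03 and 0.03 at 0 h, -0.35 and -0.27 at 6 h, -0.45 and -0.46 at 12 h, and -0.49 and -0.40 at 24 h. It passed at each time, with changes of -0.31, -0.46 and -0.44. Nfkb2 encodes the precursor of the non-canonical subunit. Its probe set 1429128_x_at read -0.03 and 0.03 at 0 h, -0.47 and -0.27 at 6 h, -0.32 and -0.37 at 12 h, and -0.39 and -0.28 at 24 h. It changed by -0.37, -0.34 and -0.33 and passed at each time. Probe set 1425902_a_at changed by -0.36, -0.44 and -0.41 and passed at 12 and 24 h.

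Both inhibitor genes were lower too. Nfkbie probe set 1431843_a_at read -0.11 and 0.11 at 0 h, -0.79 and -1.23 at 6 h, -0.93 and -1.12 at 12 h, and -0.69 and -0.78 at 24 h. The fall was 2.01-fold at 6 h (-1.01 ± 0.16, adjusted p = 0.00171), 2.04-fold at 12 h and 1.66-fold at 24 h, and the 6 h arrays were the furthest apart. Probe set 1458299_s_at changed by -0.91, -1.06 and -0.84. Nfkbia probe set 1420088_at read 0.08 and -0.08 at 0 h, -0.43 and -0.35 at 6 h, -0.62 and -0.61 at 12 h, and -0.51 and -0.40 at 24 h. It did not overlap with 0 h at any time, which held for 59.6%, 64.6% and 63.7% of all probe sets at 6, 12 and 24 h. Its changes were -0.39, -0.62 and -0.45 (adjusted p = 0.0146, 0.00124 and 0.00645). Of the 5 Nfkbia probe sets, 2 were lower at 6 h, 4 at 12 h and 3 at 24 h, with changes on these 4 of -0.22 to -0.62. The remaining one, 1420089_at, changed by 0.13, -0.01 and 0.13. It was the only one of the 17 that passed in none of the 6 comparisons. Probe sets of Nfkbia therefore did not all report the same change.

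Bcl3, an IkB-like protein that acts in the nucleus, read -0.14 and 0.14 at 0 h, -0.26 and -0.36 at 6 h, -0.74 and -0.38 at 12 h, and -0.67 and -0.30 at 24 h. It passed at 12 h (-0.56 ± 0.17, adjusted p = 0.0333), and at 24 h its change was -0.49 (adjusted p = 0.0592). Traf1 probe set 1445452_at read -0.22 and 0.22 at 0 h, -0.40 and -0.48 at 6 h, -0.22 and -0.46 at 12 h, and -0.42 and -0.64 at 24 h. Its 0 h arrays were far apart, and those of 12 h overlapped with them. It passed at 24 h (-0.53 ± 0.16, adjusted p = 0.0364). The other, 1423602_at, changed by -0.31, -0.23 and -0.15 and passed at no time.

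**Figure D2:**
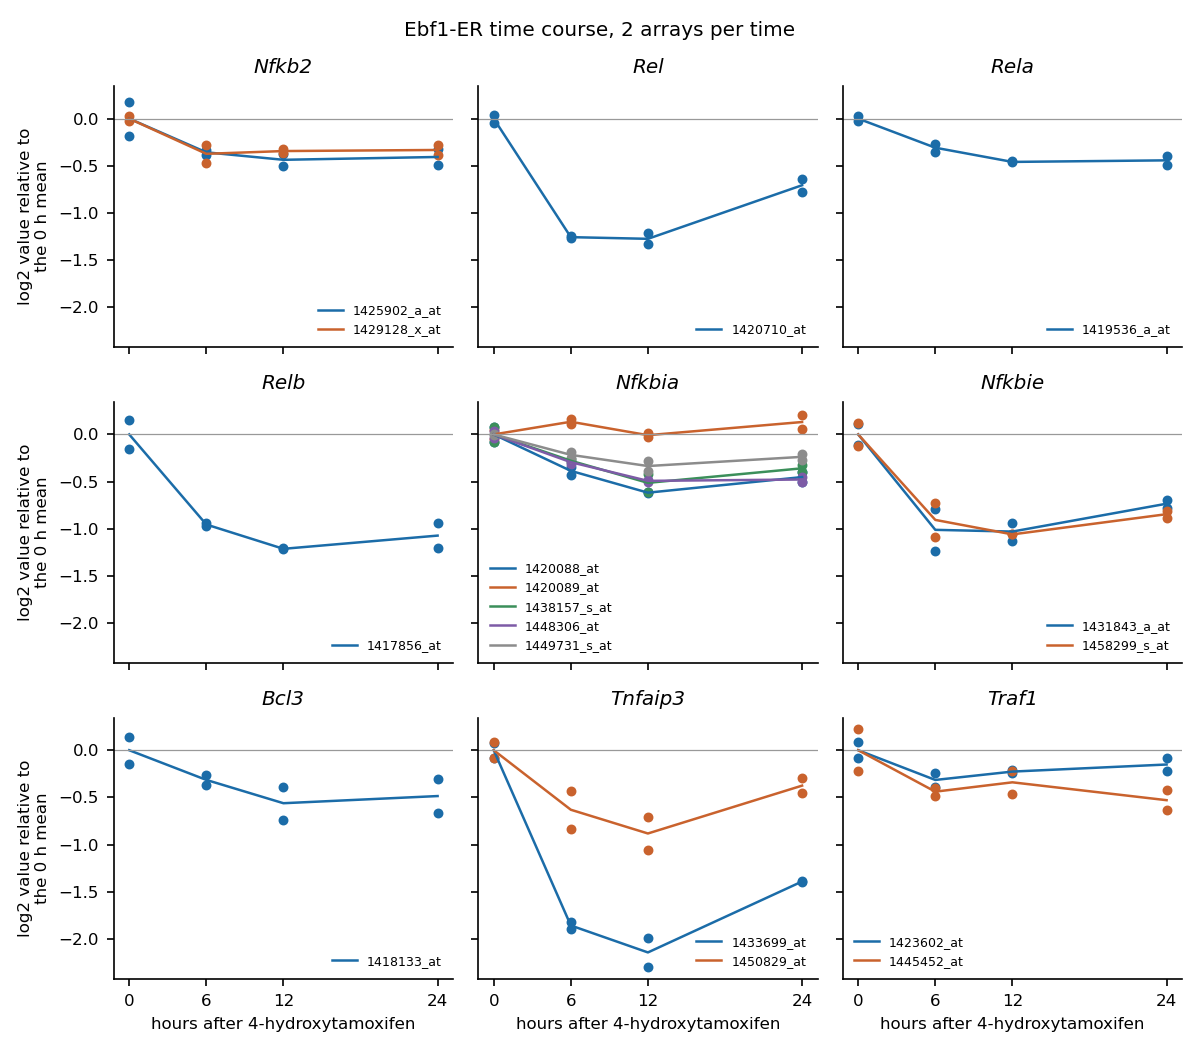
Log2 value relative to the 0 h mean (vertical axis, the same in every panel) against hours after 4-hydroxytamoxifen (horizontal axis). Points are the 2 arrays of a time, lines join their means, and colours stand for probe sets. Tnfaip3 probe set 1433699_at reaches -2.30 at 12 h, Rel is higher at 24 h than at 6 h, and Nfkbia probe set 1420089_at stays near 0.

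The change between 24 h and 6 h is taken between treated arrays, and the 0 h arrays enter it only through the estimate of the spread that the 4 times share. Rel was 1.46-fold higher at 24 h (0.55 ± 0.09, adjusted p = 0.0115), the single call among the 17 probe sets (5.88%). That share was near the background of 4.38% higher and 3.74% lower over all probe sets. Of 9 alternative fits, 5 kept this call. It was lost when either 6 h array was left out (adjusted p = 0.073 and 0.0632), when 24 h array 2 was left out (0.0918) and in a joint fit of the 3 experiments (0.754). Tnfaip3 probe set 1433699_at was 0.47 higher at 24 h and did not pass (adjusted p = 0.0564). At an unadjusted p under 0.05, 2 of the 17 passed, with no share over all probe sets computed at that threshold.

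At 24 h against 0 h, 21% of all genes were higher and 17.8% lower. The other known NF-kB targets were mostly lower: 22 of 35 fell and 4 rose, with a median log2 change of -0.65, against 0.05 over all genes. Ccl3 fell by 5.38 on the log2 scale (41.7-fold), Ptgs2, the inducible cyclooxygenase, fell by 4.25, and Zfp36, which destabilises inflammatory mRNAs, fell by 2.98. Of 12 other inhibitors and deubiquitinases 8 fell and 1 rose. Among these were Nfkbiz (-2.36), which encodes an IkB-like nuclear protein, the ubiquitin ligase Itch (-1.16) and the deubiquitinase Cyld (-0.82). Of 18 ligands and receptors 8 fell and 1 rose, with Ltb at -2.20, Tnfsf11, the RANK ligand, at -1.79 and Il18r1 at -1.49.

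Upstream of NF-kB the direction was mixed. Of 18 IkB kinase subunits and adaptors 6 rose and 6 fell. Malt1, the protease that links antigen receptors to the kinase, fell by 2.97 and its partner Bcl10 by 0.72, whereas Map3k7, the kinase above the IkB kinase, rose (1.01). In the non-canonical arm 3 of 7 fell, Birc3 by 0.65, Birc2 by 0.53 and Map3k14 by 0.34. Between 24 h and 6 h, with 4.92% of all genes higher and 4.39% lower, 7 of the 35 other targets were lower and 1 higher. Ccl3 (-3.33), Plek (-2.02) and Ccl5 (-1.36) had the largest of these falls. Lta (-1.08), Ltb (-0.97) and Malt1 (-0.80) were also lower at 24 h, and Tnfsf11 was higher (0.66).

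Markers of other cells moved at the same times. At 24 h against 0 h, 9 of 10 interferon-response genes, 7 of 9 NK and innate lymphoid markers, 6 of 13 stromal markers and 4 of 10 T cell markers were lower. Of 13 myeloid markers 6 were lower and 2 higher. The mean of the stromal markers, which OP9 cells carried over could supply, lay between -0.96 and -0.71 at 24 h, against -0.23 and 0.23 at 0 h. The NK and innate lymphoid mean lay between -1.21 and -1.16 at 24 h, against -0.06 and 0.06 at 0 h. The part of these markers in the fall of the NF-kB genes was not tested.

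The third experiment compared enlarged lymph nodes of Ebf1+/-Pax5+/- mice with wild-type pro-B cells. Tnfaip3, Nfkbie, Bcl3 and Nfkb2 were lower in the lymph nodes, and no gene of the 9 was called higher. Of 17 probe sets 5 were lower, against 7.53% lower and 9.87% higher over all probe sets. The median log2 change of the 17 was -0.50, and that of all probe sets was 0.02. At an unadjusted p under 0.05, 8 passed, with no share over all probe sets computed at that threshold. Values of a lymph node are means of its 2 arrays.

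Tnfaip3 probe set 1433699_at ranged from -1.79 to -0.77 over the 8 lymph nodes (median -1.40), against 0.01 and -0.01 in the WT pro-B samples. The highest, lymph node 317, was still well below the wild-type samples, and the next was 383 at -1.05. The fall was 2.52-fold (-1.34 ± 0.21, adjusted p = 0.00231). Probe set 1450829_at, at -0.30, overlapped with wild type and did not pass (adjusted p = 0.25).

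Nfkbie fell on both probe sets. Values of 1458299_s_at ranged from -1.36 to -0.71 in the lymph nodes (median -1.09), against 0.10 and -0.10 in WT pro-B samples, a 2.09-fold fall (-1.06 ± 0.15, adjusted p = 0.00145). Values of 1431843_a_at ranged from -1.0 to -0.36 in the lymph nodes (median -0.59), against 0.07 and -0.07 in WT pro-B samples (-0.61, adjusted p = 0.0192). Neither overlapped with wild type, which held for 26.7% of all probe sets.

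Bcl3 ranged from -2.43 to -0.73 in the lymph nodes (median -1.31), against -0.30 and 0.30 in WT pro-B samples (-1.33 ± 0.36, adjusted p = 0.0299). The wild-type samples were further apart here than for any other probe set. Nfkb2 probe set 1429128_x_at ranged from -0.80 to -0.18 in the lymph nodes (median -0.67), against -0.09 and 0.09 in WT pro-B samples (-0.62 ± 0.15, adjusted p = 0.0165). Probe set 1425902_a_at changed by -0.49 and did not pass. Without either WT pro-B sample, 2 of the 17 probe sets remained called, Nfkbie 1458299_s_at and Tnfaip3 1433699_at, and these were the only ones called in each of the 15 alternative fits.

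Nfkbia was spread widely over the lymph nodes. Probe set 1448306_at ranged from -2.45 to -0.12 (median -0.87), against -0.01 and 0.01 in WT pro-B samples, and did not pass (-1.01 ± 0.44, adjusted p = 0.145). By lymph node it read -2.45 in 277, -1.14 in 327, -1.10 in 278, -0.90 in 279, -0.84 in 383, -0.79 in 292, -0.74 in 381 and -0.12 in 317. All 8 lymph nodes lay below both wild-type samples, and the 6 between the ends were within 0.5 of each other. Probe set 1438157_s_at gave -0.99 (adjusted p = 0.105), and the remaining 3 gave -0.60, -0.50 and -0.28. Lymph node 277 was the lowest on all 5. Without it 7 of the 17 probe sets were called lower, and these included 1438157_s_at (-0.81, adjusted p = 0.0229) and 1448306_at (-0.81, adjusted p = 0.038).

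Subunit genes other than Nfkb2 did not pass. Rel ranged from -0.11 to 2.01 in the lymph nodes (median 0.27), against -0.10 and 0.10 in WT pro-B samples (0.47 ± 0.43, adjusted p = 0.512). Lymph node 317 alone stood at 2.01, and the next was 327 at 0.58. In 278 Rel read 0.46, and the remaining 5 lymph nodes lay between -0.11 and 0.27. Rela changed by 0.10 (95% interval -0.14 to 0.34) and Relb by -0.24 (-0.96 to 0.49). Traf1 changed by 1.07 and 0.88 on its 2 probe sets and did not pass on either (adjusted p = 0.239 and 0.412). Its values on 1423602_at ran from 0.06 to 2.67 in the lymph nodes (median 0.90), against -0.18 and 0.18 in WT pro-B samples.

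**Figure D3:**
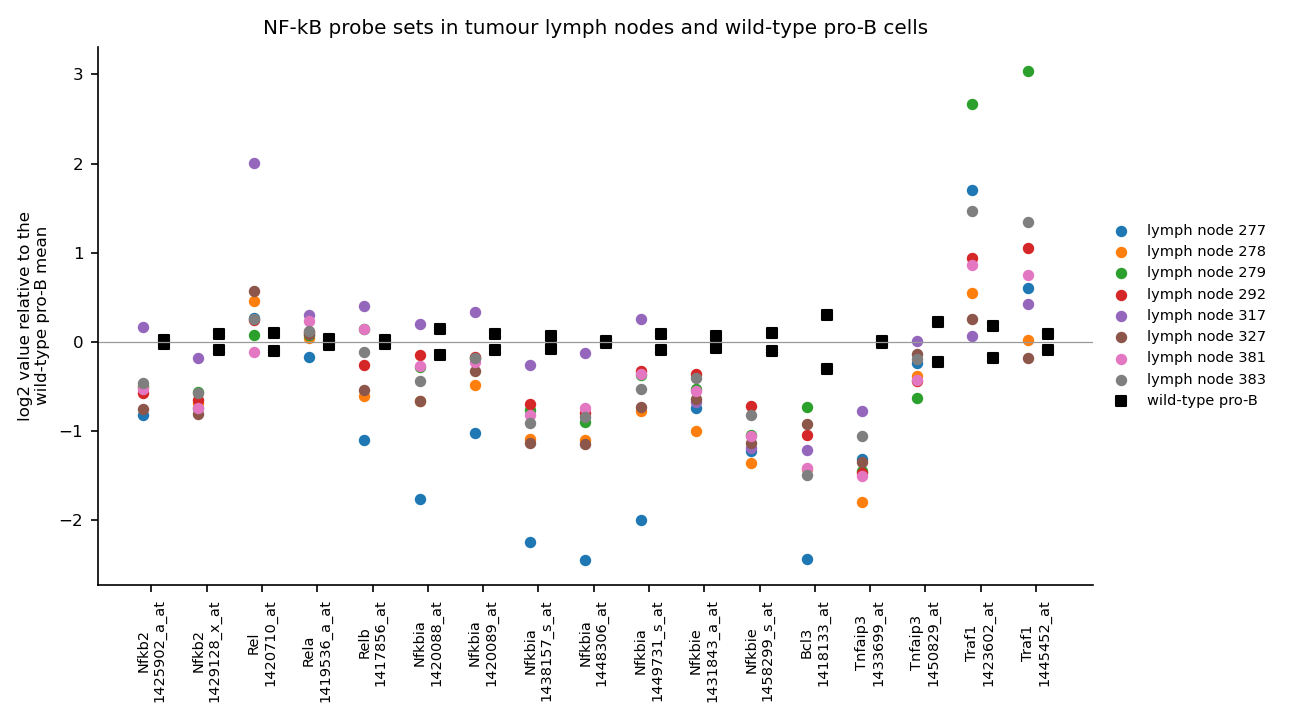
Log2 value of each probe set relative to the WT pro-B mean (vertical axis) in the 8 lymph nodes (coloured circles, each the mean of 2 arrays) and the 2 WT pro-B samples (black squares). Lymph node 277 is lowest on all 5 Nfkbia probe sets and Bcl3, lymph node 317 stands alone for Rel at 2.01, and lymph node 279 is highest for Traf1.

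The lymph nodes differed from each other on most of these probe sets. In limma's moderated F test over the 16 arrays, 15 of 17 were called, against 57.9% of all probe sets. The spread in that test came from the array pairs of single nodes and may be technical. Nfkb2 1429128_x_at (adjusted p = 0.0681) and Tnfaip3 1450829_at (adjusted p = 0.0997) did not pass. Lymph node 317 was highest on 12 of 17 probe sets, including all of Nfkbia, Rel, Rela, Relb, Nfkb2 and Tnfaip3. Lymph node 277 was lowest on 9, including all of Nfkbia, Rela, Relb and Bcl3. Nfkbia alone supplied 5 probe sets to each of these counts. How often these lymph nodes were highest or lowest over all probe sets was not counted, so the counts have no background. The range over lymph nodes was 5.0-fold for Nfkbia 1448306_at and 4.35-fold for Rel, and it was narrower for Rela (1.38-fold) and both Nfkbie probe sets (1.57-fold and 1.56-fold).

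Traf1 followed another order. Lymph node 279 was highest on both probe sets, at 2.67 and 3.03. Lymph nodes 317 (0.06) and 327 (-0.18) were the lowest on one each. The range was 6.11-fold on 1423602_at and 9.27-fold on 1445452_at, wider than for any other probe set of these genes. The array pairs of 1 lymph node differed by at most 0.39 and 0.44 on these probe sets.

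Cell-type markers differed over the same lymph nodes. The T cell marker mean was 2.80 in lymph node 279, 1.5 in 383 and 0.99 in 381, and lay between -0.80 and 0.13 in the others, against -0.13 and 0.13 in WT pro-B samples. The NK and innate lymphoid mean was 2.35 in lymph node 279 and -1.07 in 317, against 0.02 and -0.02 in WT pro-B samples. Lymph node 277, second highest for Traf1 1423602_at at 1.71, had a T cell mean of -0.36. On Traf1 1445452_at lymph node 277 read only 0.60, below 279 (3.03), 383 (1.34), 292 (1.05) and 381 (0.75). Of 13 myeloid markers 10 were lower in the lymph nodes, and their mean lay between -4.62 and -2.72, against -0.11 and 0.11 in WT pro-B samples. Lymph nodes 277 and 279 were the ends of that range. Of 13 stromal markers 6 were lower (mean between -1.35 and -0.98), and the B-lineage mean ran from -0.71 in lymph node 317 to 0.42 in 292. The B-lineage list holds Ebf1 and Pax5, the genes of the mouse genotype. For Ebf1 the most variable probe set was the one that was higher by 4.48, which lifts this mean. The median log2 change of the 12 measured B-lineage genes was -0.66. Because the deposited values are relative, whether a marker was undetected cannot be read. The part of these markers in the NF-kB results was not tested.

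**Figure D4:**
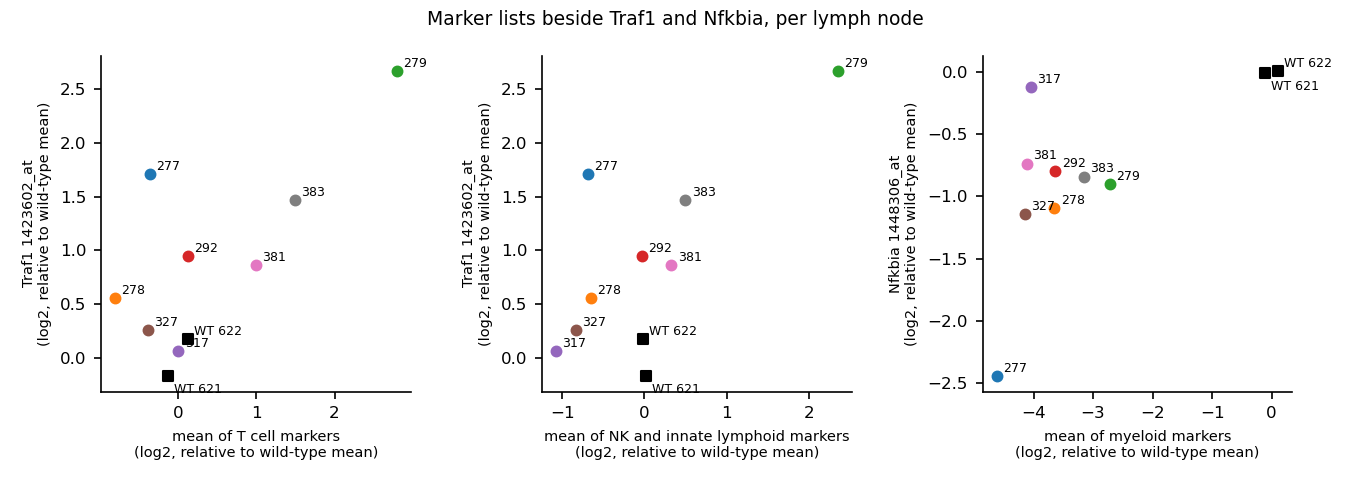
Traf1 1423602_at against the mean of the T cell markers and of the NK and innate lymphoid markers, and Nfkbia 1448306_at against the mean of the myeloid markers, all as log2 values relative to the WT pro-B mean, for the 8 numbered lymph nodes (circles) and the 2 WT pro-B samples (squares). Lymph node 279 is highest on both axes of the first 2 panels, and lymph node 277 is lowest on both axes of the third panel. There lymph node 317, the highest of the lymph nodes for Nfkbia (-0.12), has a myeloid mean of -4.05. Lymph node 279, the highest of them for the myeloid mean (-2.72), reads -0.90 for Nfkbia.

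Against WT pro-B cells 12.3% of all genes were higher and 9.43% lower. Of the 35 other known targets 8 were lower and 2 higher, with a median log2 change of -0.57, against 0.02 over all genes. The adhesion molecule Vcam1, which is also on the stromal list (-3.71), Ier3 (-3.07) and Ptgs2 (-2.78) had the largest falls. Of 18 ligands and receptors 3 were higher and 5 lower, with Tnfsf11 at 4.79 (27.7-fold), the cytokine Il1b at -3.63 and the B-cell survival factor Tnfsf13b at -2.35. Of 18 IkB kinase subunits and adaptors 4 were higher and 3 lower, among them Irak1 (0.87), Tradd (0.67) and Bcl10 (-0.76). In the non-canonical arm Ltbr (-1.26) and Birc3 (-0.84) were lower, 2 of 7. Of 12 other inhibitors and deubiquitinases 2 rose, Otulin (0.95) and Cyld (0.70), and 2 fell, Rnf11 (-0.78) among them.

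Side by side, Tnfaip3 1433699_at and both Nfkbie probe sets were lower in the Ebf1-ER course at each time and in the lymph nodes, as was Nfkb2 1429128_x_at. In the pre-B line Tnfaip3 1433699_at was at 0.02 and Nfkb2 1429128_x_at at -0.19, neither called, and 1 of the 2 Nfkbie probe sets was lower. Rel and Relb were lower in the Ebf1-ER course at each time and called in neither other experiment. Traf1 rose with Ebf1-Eng and was lower on 1 of its probe sets at 24 h of Ebf1-ER. Differences between experiments were not tested, since each has its own comparison group.

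**Figure D5:**
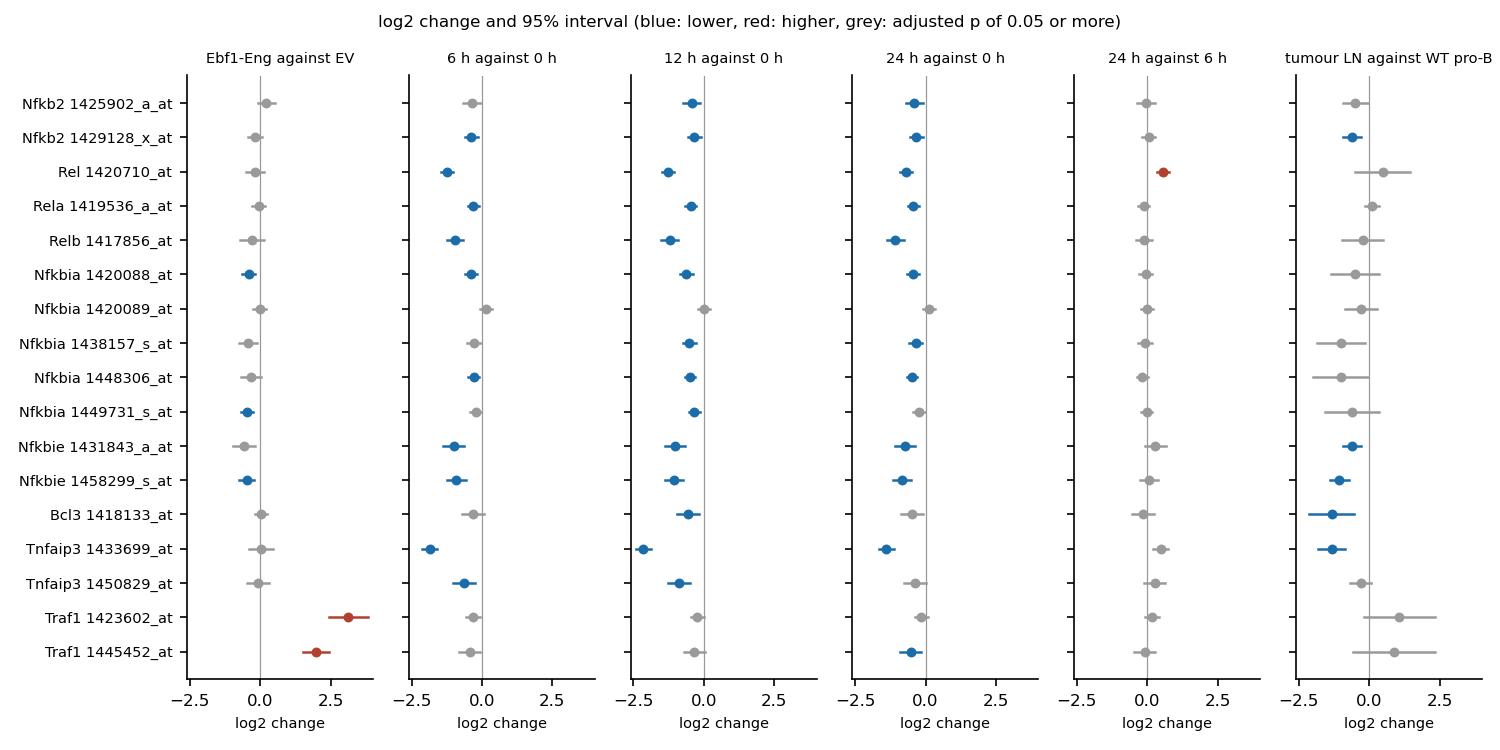
Log2 change (horizontal axis) with its 95% interval for the 17 probe sets in each of the 6 comparisons. Red marks a called rise, blue a called fall and grey an adjusted p of 0.05 or more. Falls fill the 3 panels against 0 h, Traf1 holds the 2 red points of the first panel, and the lymph node intervals are the widest for Traf1, Rel and Nfkbia.

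The profile averaged over the 9 genes was compared with every other gene over 24 samples (6 of the pre-B line, 8 of the Ebf1-ER course, 8 lymph nodes and 2 WT pro-B samples), each experiment centred on its own mean. The most alike was Ccr9, a chemokine receptor (r = 0.96, and 0.90, 0.97 and 0.95 within the 3 experiments). It was followed by Nfkbiz (r = 0.93), Dazap2 (0.91), Pcyt1a (0.90) and Klf6 (0.89). Within the pre-B line these 4 had r of 0.71, 0.57, 0.77 and 0.66. The 9 genes were not all close to their own mean, with r from 0.18 (Traf1) to 0.88 (Relb) over the 24 samples. Each of the 9 is part of that mean, so its r is partly with itself and cannot be set beside those of other genes. Within the pre-B line Nfkbie (-0.45) and Nfkbia (-0.09) had a negative r, and the remaining genes ran from 0.22 (Relb) to 0.75 (Tnfaip3). The samples fall into the groups of the design and share arrays' normalisation, so these values describe likeness only.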

How the data were processed

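The authors deposited 1 matrix of log2 expression values for 45101 probe sets on 32 arrays, on a log scale. The submitters' processing notes name RMA. No source used here states the base, and base 2 was assumed. The median of every probe set was 0 over the arrays of the pre-B line and over those of the Ebf1-ER course (100%), and in the tumour experiment it was 0 for 24% of them. The first 2 had thus been centred by probe set before deposit, and how the third was centred is not settled. Array medians lay between -0.014 and 0.049, so no array holds absolute levels and no filter on low values was possible. The number of arrays limits the precision.

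Gene names came from GEO's platform annotation: 34958 probe sets had 1 gene, 932 several and 9211 none listed. Those with 1 gene were fitted in limma 3.58.1 (R 4.3.3, package data.table in version 1.17.8), each experiment alone, with p-values Benjamini-Hochberg adjusted over all of them and calls at an adjusted p under 0.05. The 4 times shared 1 fit, and the 2 arrays of a lymph node were averaged first. Errors are limma's standard errors, and tests are two-sided. For other pathway genes and markers the most variable probe set of the experiment stood for a gene, which favours large changes. The code was tested on simulated data. Alternatives are given with the closing observations.

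The NF-kB genes, lists and tests were chosen with earlier results of these data known. All NF-kB genes were named, then up to 3 genes per pathway list and comparison with the largest called change and no overlap between groups, and the 5 genes most alike in profile. Promoter windows came from RefSeq (GRCm38.p6).

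The titles give the Ebf1-Eng and EV samples matching numbers, and residuals of same-numbered samples correlated at 0.26, 0.35 and 0.43. The main fit did not use these numbers, and a fit with them as a block is given with the closing observations. In the Ebf1-ER course same-numbered arrays share only a number. No source says that replicates came from separate cultures or animals. Their p-values then reflect only the spread of these samples, possibly a technical one. Numbers of lymph nodes and wild-type samples were read as 1 mouse each. No 2 arrays were identical (smallest median absolute difference 0.0911).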

Additional observations from a re-analysis of the deposited data

Results flagged for a closer look

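Each of the 17 probe sets was tested for a lymph node far from the other 7 with Dixon's ratio (critical value 0.526 for 8 samples). The ratio was past it for 8 probe sets, in 2 lymph nodes. Chance flags about 1 in 20 such groups, and probe sets of 1 gene are not independent. Lymph node 317 stood above the others for Rel (2.01) and for Nfkb2, at 0.17 on 1425902_a_at and -0.18 on 1429128_x_at, where the next highest were 0.58, -0.46 and -0.55. Lymph node 277 stood below the others for Bcl3 (-2.43) and for 4 of 5 Nfkbia probe sets. Its values there were -1.76 on 1420088_at, -2.24 on 1438157_s_at, -2.45 on 1448306_at and -2.0 on 1449731_s_at. All values are log2, relative to the WT pro-B mean.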

How the results depend on the processing

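Counts of called probe sets among the 17 were recomputed under other settings, and no called change of a probe set turned its direction. The share called over all probe sets is given for the main fits only. Counts under other settings, here and above, therefore have no background, and whether their shifts are particular to these genes cannot be read. Of the recomputed probe set results 390 kept their call, 86 lost it and 26 gained one. With 1 fit over all groups of the series the counts were 5 at 6 h, 7 at 12 h, 5 at 24 h, 0 for 24 h against 6 h and 8 for the lymph nodes, against 10, 14, 12, 1 and 5 in the separate fits. That fit gave all experiments 1 estimate of the spread. Leaving out the less variable probe sets gave 3 calls for Ebf1-Eng against EV (5 with all) and 2 for 24 h against 6 h (1 with all). With the most variable probe set per gene, 1 gene was called for Ebf1-Eng against EV (3 by any probe set). Leaving out both samples numbered 3 gave 8 for Ebf1-Eng against EV. Leaving out each replicate gave 2 to 7 for Ebf1-Eng against EV, 5 to 9 at 6 h, 10 to 13 at 12 h, 7 to 10 at 24 h, 0 to 1 for 24 h against 6 h and 2 to 7 for the lymph nodes. The lowest at 6 h and at 24 h came without array 1 of that time. The count between lymph nodes, 15, stayed at 14 to 16. With the lymph node as a random block over all arrays (correlation 0.71) 7 probe sets were called.

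With the replicate block the counts were 6 for Ebf1-Eng against EV, 10, 14 and 11 at 6, 12 and 24 h, and 1 for 24 h against 6 h. At 24 h the block lost the calls of Nfkb2 1425902_a_at and Traf1 1445452_at and gained that of Bcl3. Same-numbered arrays of 24 h and 0 h correlated at -0.23, and with the 24 h numbers crossed, a fit chosen after seeing the data, 12 were called. With 2 arrays per time, a change of -0.29 was called in the Ebf1-ER course (Nfkbia 1448306_at at 6 h). With 2 wild-type samples and lymph nodes that differed widely, a change of -1.01 on the same probe set was not called. Signal over background cannot be read from relative values.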
